A study of Rattus norvegicus with 3 samples.

Results

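Nuclear genes for respiratory complex III, complex IV and the ATP synthase were followed in cultured ventricular myocytes of newborn rats. A gene belonged to this group when its symbol in the platform annotation began with Uqcr, Cox4 to Cox8 or Atp5, or was Cyc1, and when a probe set carried that symbol alone. This gave 40 of the 10411 genes on the array, 8 of complex III, 16 of complex IV and 16 of the ATP synthase. Total RNA of each of 3 conditions was measured on 1 array after 48 h of culture, and the cells were left unstimulated, given phenylephrine at 20 µM or given PAMH at 1 µM. Phenylephrine activates α1-adrenergic receptors and is a standard way to make cultured myocytes enlarge, and PAMH is known here only by the name the submitters gave. The labels do not state the rat strain, the number of animals or cultures behind an array, or a vehicle in the unstimulated culture. With no replicates, the differences below have no standard error and no p-value, and they describe these 3 arrays.

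Complex III takes electrons from reduced coenzyme Q and passes them to cytochrome c, and complex IV, cytochrome c oxidase, passes them on to oxygen. Both pump protons across the inner mitochondrial membrane, and the ATP synthase uses the resulting gradient to make ATP. The heart depends on this pathway, and several small subunits of complex IV exist as a ubiquitous form and a heart and muscle form that takes over as striated muscle matures.

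Signals are intensities on a linear scale after each array was multiplied by 1 factor that made the array medians equal. A probe set was called measured where it reached an intensity of 76.1, percentile 40 of all scaled values. Of the 40 members, 38 were measured on all 3 arrays. Cox4i2, the isoform of subunit 4 known from lung, had 42.9, 75.6 and 78.3 on the unstimulated, phenylephrine and PAMH arrays and reached that floor on the PAMH array alone. Cox6b2, the testis isoform of subunit 6b, had 16.9, 16.1 and 12.0 and was below it throughout. No probe set with 1 symbol represented Cox7a2, Cox7b2, Cox8c, Atp5mc1 or Atp5mc2, so these isoforms were not analysed here.

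The arrays had deposited median intensities of 117.9, 108.0 and 105.9, in the same order, and 35 of the 40 members were among 658 bright genes. Bright genes had a mean signal at or above percentile 90 of the 6571 genes measured on both the unstimulated and the phenylephrine array. The 623 bright genes that were not members had a median log2 ratio to the unstimulated array of 0.24 for phenylephrine and 0.30 for PAMH, against 0.07 and 0.10 over all genes measured, so both backgrounds are given beside the members. All 11 cardiac myocyte markers on the array were measured on every array, and their summed signal was 78774 without stimulus, 102797 with phenylephrine and 121558 with PAMH. Nppa, which responds to growth stimuli, went from 7524 to 17006 and 19611 within that sum, and 5 of the 11 markers had a ratio below 0 with phenylephrine and 1 with PAMH. The median log2 ratio of the 11 was 0.25 with phenylephrine and 0.44 with PAMH, and 0.19 for PAMH against phenylephrine. The summed signal of 9 fibroblast markers was 9469, 7223 and 5590, and that of 5 smooth muscle markers 3238, 7311 and 6182. The smooth muscle markers did not move together. Cnn1 had log2 ratios of 2.85 and 2.48, Myh11 0.02 and -0.64, and Smtn -0.36 and -0.19. Of the 5, 1 was below 0 with phenylephrine and 2 with PAMH. Of 4 endothelial markers 3 lay below the floor on every array, and the summed signal of all 4 was 159, 201 and 96. Of 6 leukocyte markers 3 lay below it on every array and 2, Aif1 and Cd74, were measured on all, and the 6 together had a summed signal of 367, 392 and 452. Of 2 erythroid markers, with sums of 100, 177 and 73, none was measured on all arrays. In such bulk RNA, fewer cells of a type and less RNA per cell cannot be told apart. The part of these shifts in marker signal in the members' ratios was not tested.

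The sharpest contrast within the group was between the isoforms of subunit 8 of complex IV. Cox8b (gene 25250), the heart and muscle isoform, had a scaled intensity of 4340 without stimulus, 2197 with phenylephrine and 2987 with PAMH. Cox8a (gene 171335), the ubiquitous isoform of the same subunit, had 4802, 5644 and 6862. At this scaling Cox8b was highest on the unstimulated array and Cox8a lowest there. Cox8b was 1.98-fold lower with phenylephrine and 1.45-fold lower with PAMH, while Cox8a was 1.18-fold and 1.43-fold higher. The direction of Cox8a with phenylephrine was not settled, since its log2 ratio of 0.23 became -0.09 after quantile normalization and after cyclic loess, and with PAMH it became 0.08 and 0.09. Of the 623 bright genes, 2 had a lower ratio than Cox8b with phenylephrine and 7 with PAMH. The log2 ratio of Cox8b minus that of Cox8a was -1.22 with phenylephrine and -1.05 with PAMH. Over 10 processing alternatives it ranged from -1.22 to -1.16 and from -1.05 to -0.98. Only quantile normalization, cyclic loess and the offset among them could change it. The others leave it fixed, since array scaling cancels and each gene has 1 probe set, above every floor. As a technical yardstick, genes with several measured probe sets were used, whose log2 ratios within a gene had an SD of 0.27 for phenylephrine and 0.29 for PAMH. That SD says nothing of how cultures vary.

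The isoforms of subunit 6a did not part in this way. Cox6a2 (gene 25278), the heart and muscle isoform, had 4830, 6428 and 6560 on the unstimulated, phenylephrine and PAMH arrays. Cox6a1 (gene 25282), the ubiquitous isoform, had 3001, 4573 and 5248. Both were lowest without stimulus at this scaling, but the log2 ratios of Cox6a2 became 0.09 and 0.08 with phenylephrine and -0.00 and 0.01 with PAMH after quantile normalization and cyclic loess. At this scaling Cox6a1 had the highest ratio of all measured members against the unstimulated array, 1.52-fold with phenylephrine and 1.75-fold with PAMH. Cox6a2 had 1.33-fold and 1.36-fold. After cyclic loess Cox6a1 had log2 ratios of 0.31 and 0.42, below Atp5if1 with phenylephrine (0.35) and Atp5me with PAMH (0.46). The log2 ratio of Cox6a2 minus that of Cox6a1 was -0.20 with phenylephrine and -0.36 with PAMH. The SD between probe sets of a gene, 0.27 and 0.29, is for a single ratio. A difference between ratios varies more, so neither value was clearly beyond that yardstick. Both differences kept their sign over the 10 alternatives, of which again only quantile normalization, cyclic loess and the offset could change them. Cox7a1, the heart and muscle isoform of subunit 7a, was near the floor with 91.1, 104.6 and 110.5, and its log2 ratios of 0.20 and 0.28 were small. Against the unstimulated array the muscle isoforms therefore had no common direction at this scaling. In both isoform pairs, though, the muscle isoform had the lower ratio with either compound.

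**Figure D1:**
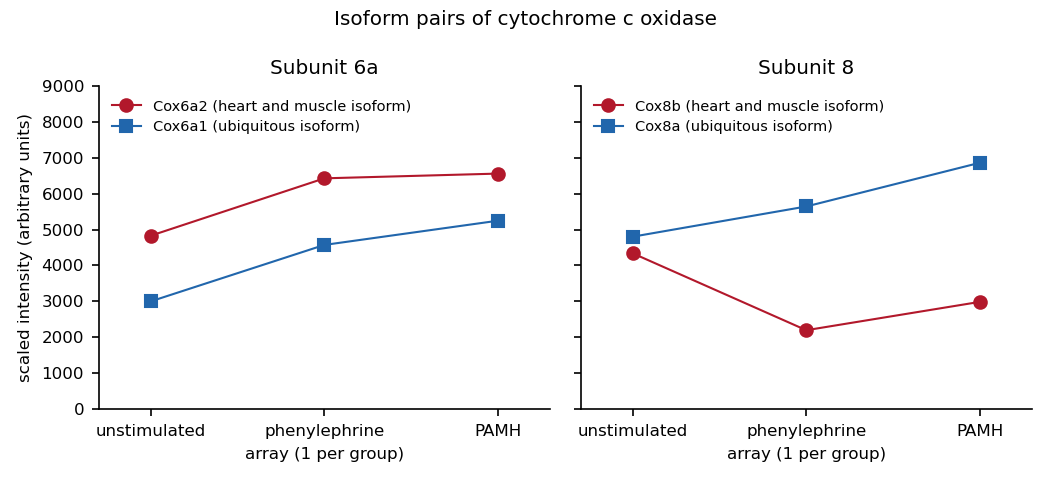
Scaled intensity (vertical axis, arbitrary units, from 0) of the isoforms of subunit 6a (left) and subunit 8 (right) of cytochrome c oxidase on the 3 arrays. Each point is 1 array, circles stand for the heart and muscle isoform and squares for the ubiquitous one, and lines join the points of a gene. Cox8b goes from 4340 without stimulus to 2197 with phenylephrine and 2987 with PAMH, whereas the other 3 genes are lowest without stimulus at this scaling, which for Cox8a with phenylephrine turned under quantile and cyclic loess normalization. Distances between genes have no meaning, since probe sets differ in brightness.

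The stretch around the start site is shown for Cox8a and Cox8b, whose ratios differed most between isoforms. It is also shown for Cox6a2, the muscle isoform that did not go with Cox8b, and for Atp5me. At the main scaling Atp5me had the second highest ratio with PAMH. The sequences are RefSeq promoters of build GRCr8, 250 bases before to 50 after the gene start, read 5′ to 3′ on the gene's strand. They lie at chr1:213833574-213833873 for Cox8a, chr1:205408224-205408523 for Cox8b, chr1:192219667-192219966 for Cox6a2, all on the minus strand, and chr14:1464610-1464909 on the plus strand for Atp5me. Capitals mark matches, on either strand, to the 4 motifs given after the sequences.
Cox8a: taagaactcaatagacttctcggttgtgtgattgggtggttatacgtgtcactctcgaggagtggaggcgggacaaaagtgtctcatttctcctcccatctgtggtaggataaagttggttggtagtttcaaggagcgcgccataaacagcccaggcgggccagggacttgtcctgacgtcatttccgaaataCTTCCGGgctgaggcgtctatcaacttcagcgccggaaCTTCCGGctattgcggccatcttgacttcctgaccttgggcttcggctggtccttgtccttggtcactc
Cox8b: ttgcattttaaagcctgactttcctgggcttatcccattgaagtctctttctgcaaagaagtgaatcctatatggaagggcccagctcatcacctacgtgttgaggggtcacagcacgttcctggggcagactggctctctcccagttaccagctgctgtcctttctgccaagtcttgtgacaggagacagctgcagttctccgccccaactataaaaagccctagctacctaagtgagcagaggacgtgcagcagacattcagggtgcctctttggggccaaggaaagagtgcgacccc
Cox6a2: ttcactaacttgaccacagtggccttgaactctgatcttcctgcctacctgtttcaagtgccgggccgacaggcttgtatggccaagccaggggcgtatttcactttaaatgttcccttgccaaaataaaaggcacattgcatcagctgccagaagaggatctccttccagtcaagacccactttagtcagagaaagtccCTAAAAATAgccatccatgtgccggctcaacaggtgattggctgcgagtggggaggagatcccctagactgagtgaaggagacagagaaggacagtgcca
Atp5me: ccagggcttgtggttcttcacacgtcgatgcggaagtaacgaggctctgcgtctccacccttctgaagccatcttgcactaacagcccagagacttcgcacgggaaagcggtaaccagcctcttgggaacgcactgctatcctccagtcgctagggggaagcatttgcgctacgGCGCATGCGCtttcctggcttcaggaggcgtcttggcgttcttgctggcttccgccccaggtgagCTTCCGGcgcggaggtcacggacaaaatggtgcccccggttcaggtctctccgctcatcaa

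Of the 40 members, 33 had a promoter in the table. CCGGAAG, a sequence bound by ETS factors such as the nuclear respiratory factor GABP, was in 11 of these 33 (33.3%) and in 8.75% of the 33469 promoters of the table. Cox8a held it in 2 places on the opposite strand, as CTTCCGG, and Cox4i1, Cox5b, Uqcrh, Uqcrc2, Uqcrq, Atp5f1a, Atp5mg, Atp5mk, Atp5pf and Atp5me were the other 10. The core letters of the NRF-1 site were in Atp5me and Atp5po, and in 0.852% of all promoters. TCAAGGTCA, an estrogen-related receptor site, was in Atp5mc3, against 0.433% of all, and CTAAAAATA, a MEF2 site, was in Cox6a2, against 0.511%. The window of Cox8b held none of the 4 sets of letters, which says only that they are not in these 300 bases. No marked match in the sequences shown overlaps another. The members' windows had a median GC content of 55.3%, against 51.7% over all, and whether GC content accounts for the shares was not tested.

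With phenylephrine, 35 of the 38 measured members had a ratio above 0, as did 57.6% of all 6571 genes measured and 81.4% of the other bright genes. At 1.5-fold, 1 member was higher, Cox6a1, and 1 was lower, Cox8b, where 8.9% of all genes were higher and 4.54% lower, and 18.0% and 1.12% of the other bright genes. None reached 2-fold, a size that 2.62% of all genes passed upwards and 0.761% downwards. The members' median log2 ratio was 0.26, beside 0.07 for all genes and 0.24 for the other bright genes, so it lay near the bright background. After quantile normalization it was -0.05, with 16 members above 0 and 22 below, and after cyclic loess -0.04, with 14 above and 24 below. Of the other bright genes 283 and 303 of 623 were above 0 there, and of all genes 3153 of 6571 and 3232 of 6587. The small general difference with phenylephrine therefore has no settled direction, whereas Cox8b had -1.30 and -1.25 under these normalizations.

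With PAMH, 36 of the 38 had a ratio above 0, against 61.1% of all 6549 genes and 86.4% of the other bright genes. The members at least 1.5-fold higher were Cox6a1, Atp5me, Atp5f1d, Uqcrc1 and Uqcrh, 5 of 38, where 9.31% of all genes and 21.0% of the other bright genes were. Just short of that size, Uqcr10 was 1.49-fold higher. None of the 38 was 1.5-fold lower, against 4.17% of all genes and 0.963% of the other bright genes. None reached 2-fold, which 2.05% of all genes passed upwards and 0.794% downwards. The median log2 ratio of the members was 0.44, beside 0.10 for all genes and 0.30 for the other bright genes. The 11 cardiac myocyte markers also had a median of 0.44, so the value was not particular to the members. The members' median became 0.06 after quantile normalization and 0.04 after cyclic loess, with 21 and 22 members above 0 and none of them at 1.5-fold. Of the other bright genes 286 and 303 of 623 were above 0 under these normalizations, and of all genes 3257 of 6555 and 3258 of 6557. Cox8b had -0.93 and -0.89 there, more than 1.5-fold lower.

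**Figure D2:**
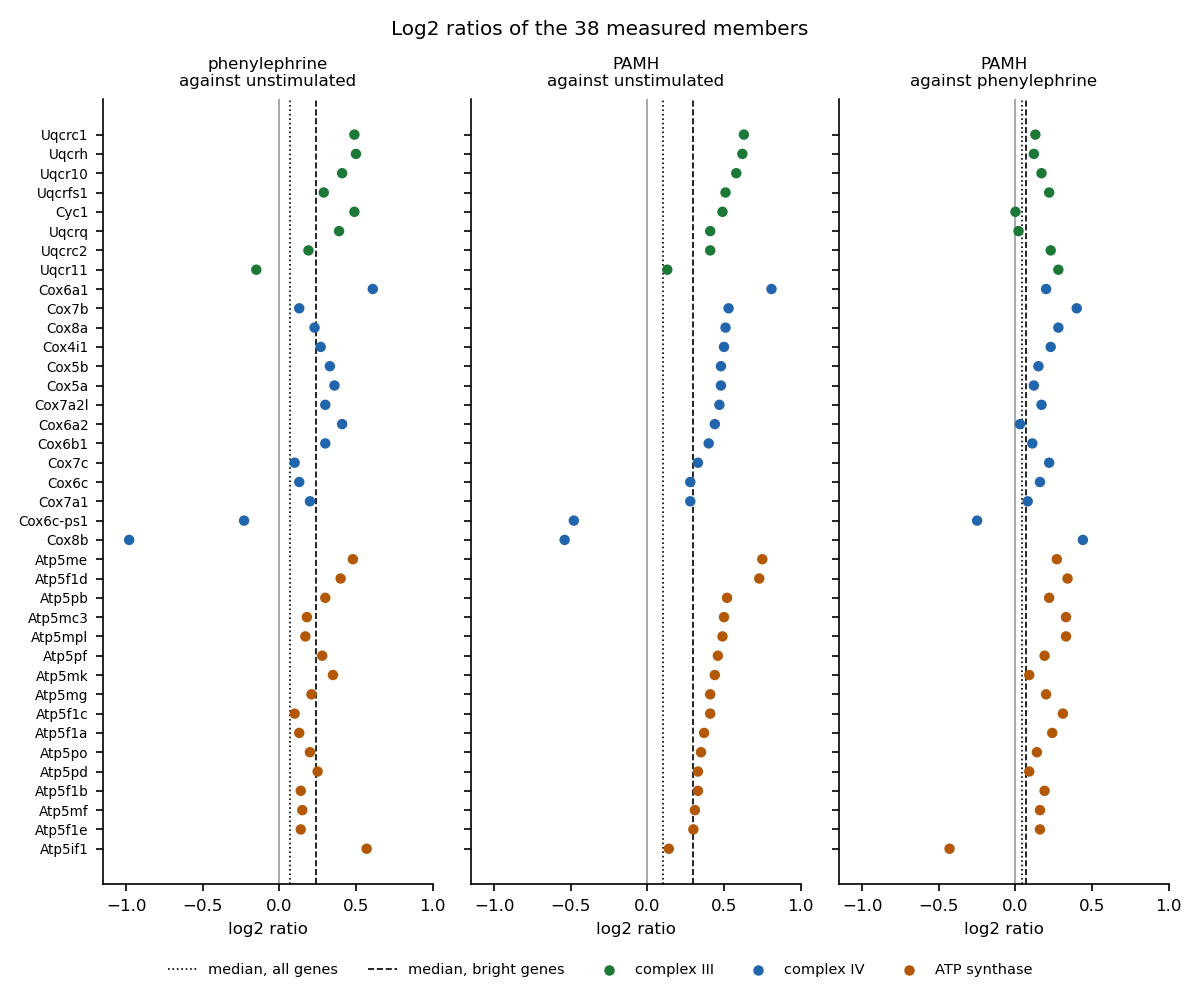
Log2 ratio (horizontal axis) of each of the 38 measured members in the 3 comparisons, ordered by complex and by the ratio with PAMH; each point is the ratio of 1 array to 1 other. The dotted line is the median of all genes (0.07, 0.10 and 0.04) and the dashed line that of the other bright genes (0.24, 0.30 and 0.07). Most points lie to the right of 0, and Cox8b stands to the left of the rest with phenylephrine at -0.98.

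Of the 3 complexes, complex III had the highest median, 0.40 with phenylephrine and 0.50 with PAMH, over its 8 members. Uqcrc1, a core protein, had 2183, 3072 and 3371 and was 1.41-fold higher with phenylephrine and 1.54-fold with PAMH. Uqcrh, the acidic hinge protein that helps cytochrome c dock, had 4155, 5865 and 6369, which is 1.41-fold and 1.53-fold higher. Cyc1, the heme protein cytochrome c1, had 3506, 4922 and 4919 and was 1.40-fold higher with each. Each of these 3 genes was lowest on the unstimulated array. Uqcrc2, the other core protein, had smaller log2 ratios of 0.19 and 0.41, and Uqcrfs1, the Rieske iron-sulfur protein, 0.29 and 0.51. The small subunit Uqcr11 had 3586, 3228 and 3918, with a log2 ratio of -0.15 for phenylephrine and 0.13 for PAMH, apart from the other 7. After cyclic loess the complex III median was 0.09 with phenylephrine and 0.11 with PAMH, and Uqcr11 had -0.43 and -0.24.

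In complex IV, 14 of 16 members were measured, and the median log2 ratio was 0.25 for phenylephrine and 0.46 for PAMH. It became -0.03 and 0.06 after quantile normalization and -0.05 and 0.04 after cyclic loess, so the direction with phenylephrine was not settled. Cox4i1, the ubiquitous isoform of the largest nuclear-encoded subunit, had 6263, 7570 and 8863 and was 1.21-fold and 1.42-fold higher. Cox5a and Cox5b, which lie on the matrix side of the enzyme, had log2 ratios of 0.36 and 0.33 with phenylephrine and 0.48 each with PAMH. Cox7a2l, a relative of subunit 7a that joins complexes III and IV into supercomplexes, had 0.30 and 0.47. Cox7c and Cox6c had small positive ratios, 0.10 and 0.13 with phenylephrine and 0.33 and 0.28 with PAMH. Cox7b was 1.09-fold higher with phenylephrine and 1.44-fold with PAMH. With phenylephrine, cyclic loess turned Cox4i1 to -0.08, Cox5b to -0.01, Cox7c to -0.23, Cox6c to -0.22 and Cox7b to -0.22. Cox6c-ps1, a pseudogene by its symbol that may share sequence with Cox6c, had a dim signal of 160.3, 136.3 and 114.7 and log2 ratios of -0.23 and -0.48. It and Cox8b were below 0 in both comparisons at this scaling, and after quantile normalization and cyclic loess Cox6c and Cox7c were so too, as was Cox6b1 with -0.01 and -0.00 for PAMH.

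The ATP synthase had 16 measured members, all above 0 with both compounds at this scaling, with medians of 0.20 and 0.41. The other bright genes had medians of 0.24 and 0.30, with 81.4% and 86.4% above 0, and of all genes 57.6% and 61.1% were above 0. In the catalytic F1 head, the α, β and γ subunit genes Atp5f1a, Atp5f1b and Atp5f1c had log2 ratios from 0.10 to 0.14 with phenylephrine and from 0.33 to 0.41 with PAMH. Atp5f1b, which carries the catalytic sites, had 7814, 8597 and 9831. Atp5f1d, the δ subunit of the central stalk, had 2148, 2829 and 3569 and was 1.32-fold and 1.66-fold higher, while Atp5f1e, the ε subunit beside it, was 1.10-fold and 1.23-fold higher. Atp5me, a membrane subunit where synthase dimers meet, had 1355, 1885 and 2275, or 1.39-fold and 1.68-fold higher, and its second probe set was below the floor. The peripheral stalk genes Atp5pb, Atp5pd, Atp5pf and Atp5po had ratios from 0.20 to 0.30 with phenylephrine and from 0.33 to 0.52 with PAMH. Atp5mc3, which encodes the ring subunit c, had 0.18 and 0.50. After cyclic loess 4 of the 16 were above 0 with phenylephrine and 6 with PAMH. The median over the 16 became -0.07 and -0.03 after quantile normalization and -0.10 and -0.02 after cyclic loess, so its direction was not settled with either compound.

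Atp5if1, which encodes the inhibitor that keeps the synthase from running backwards, differed in pattern from the subunits. Its brightest probe set had 1631, 2424 and 1794, with the phenylephrine array alone high, which is 1.49-fold higher with phenylephrine and 1.10-fold with PAMH. A second, dim probe set had 97.0, 118.7 and 131.4 and was highest with PAMH, with log2 ratios of 0.29 and 0.44, and the remaining one was below the floor. The probe sets disagree on PAMH against phenylephrine, at -0.43 and 0.15.

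**Figure D3:**
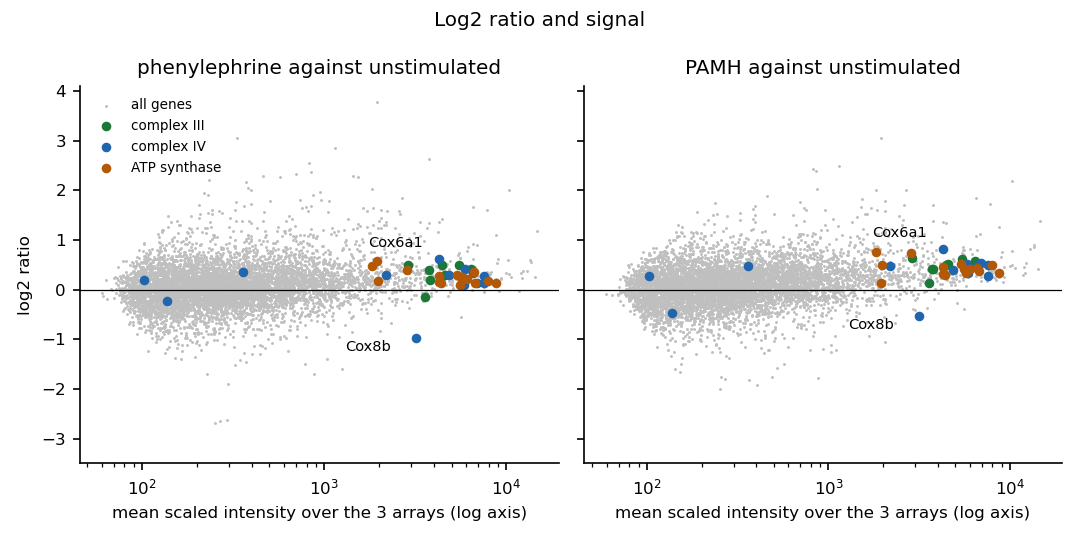
Log2 ratio to the unstimulated array (vertical axis) against mean scaled intensity over the 3 arrays (horizontal log axis), with phenylephrine (left) and PAMH (right); each grey point is a measured gene and coloured points are members. The members lie mostly at the bright end, where the medians of other genes are 0.24 and 0.30, and Cox8b lies below that cloud at -0.98 and -0.54.

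The treated arrays were also set side by side, at doses that differ. On the PAMH array 35 of the 38 members had a higher signal than on the phenylephrine array, where 56.7% of all 6593 genes and 65.8% of the other bright genes did, with a median log2 ratio of 0.18, beside 0.04 and 0.07. No member differed by 1.5-fold in either direction, against 1.93% of all genes higher and 2.67% lower, and 0.642% and 0.803% of the other bright genes. Cox8b (0.44), Cox7b (0.40), Atp5f1d (0.34), Atp5mc3 and Atp5mpl (0.33 each) had the highest ratios, and Atp5if1 (-0.43), Cox6c-ps1 (-0.25), Cyc1 (-0.00), Uqcrq (0.02) and Cox6a2 (0.03) the lowest. Cox8b was thus less far below its unstimulated signal with PAMH than with phenylephrine. The members' median was 0.10 after quantile normalization and 0.09 after cyclic loess, with 30 and 31 of the 38 above 0. Of the other bright genes 316 and 307 of 623 were above 0 there, and of all genes 3447 of 6593 and 3340 of 6620.

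Other genes of the pathway were read from lists. Of 35 measured genes with complex I symbols (Nduf), assembly factors left out, 30 were above 0 with phenylephrine and 34 with PAMH. Their medians were 0.16 and 0.39. Above 0 lay 57.6% and 61.1% of all genes, and 81.4% and 86.4% of the other bright genes. Symbols alone set this list, and whether each gene, Ndufa4 among them, encodes a complex I subunit was not checked. None of the 35 was at least 1.5-fold higher with phenylephrine and 4 were with PAMH. Of all genes 8.9% and 9.31% were, and of the other bright genes 18.0% and 21.0%. The medians of the 35 became -0.09 and 0.06 after quantile normalization and -0.07 and 0.06 after cyclic loess. Here too the direction with phenylephrine turned. The 4 genes of complex II had medians of 0.22 and 0.31, led by Sdhb, the iron-sulfur subunit, at 0.48 and 0.47, with Sdha at 0.30 and 0.33 and Sdhd at -0.05 and 0.29. COX1 and COX2, the catalytic subunits of complex IV that mitochondrial DNA encodes, had 0.34 and 0.26 with phenylephrine and 0.46 and 0.42 with PAMH. The nuclear-encoded members of complex IV had medians of 0.25 and 0.46. Complex II, these 2 genes and the lists below were read at this scaling alone, and their directions under other normalizations were not checked.

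Of 18 measured assembly factors of complex IV, 1 passed 1.5-fold upwards with phenylephrine and 0 downwards, and 2 passed it upwards and 1 downwards with PAMH, with medians of 0.04 and 0.16. Over all genes, 8.9% and 4.54% passed upwards and downwards with phenylephrine and 9.31% and 4.17% with PAMH, so these few calls are near the background. Cox17, a copper chaperone for the enzyme, had 661.2, 1125 and 1243 and log2 ratios of 0.77 and 0.91. Cmc2 had 0.43 and 0.72, Timm21 0.54 and 0.49, and Cox15, which helps make heme A, -0.53 and -0.67. Coa5 was -0.25 with phenylephrine and 0.57 with PAMH. Of 5 measured assembly factors of complex III, Uqcc3 had 0.34 and 0.50, Uqcc2 0.30 and 0.45, Uqcc1 -0.28 and 0.10 and Bcs1l -0.01 and 0.40, with medians of 0.02 and 0.40. Of 5 for the ATP synthase, with medians of 0.00 and 0.17, Atpaf2 was the one past 1.5-fold, lower with phenylephrine (-0.84 and -0.45), Dmac2l had -0.32 and -0.08, and Atpaf1 0.11 and 0.27.

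Among 9 measured partners of the complexes, which include Atp5if1, and against the same background shares, 2 were at least 1.5-fold higher with each compound and none lower, Ucp2 and Ucp3 with phenylephrine and Ucp2 and Slc25a3 with PAMH, with medians of 0.24 and 0.51. Ucp2, an uncoupling protein, had 249.6, 506.1 and 425.6, a log2 ratio of 1.02 and 0.77. Ucp3 of muscle, near the floor at 85.9 without stimulus, had 0.59 and 0.57, and Slc25a3, which carries phosphate into mitochondria for ATP synthesis, 0.53 and 0.65. Vdac2, an outer membrane pore, had 0.24 and 0.53. Of 9 measured regulators of mitochondrial gene expression, none passed 1.5-fold, with medians of 0.03 and 0.32. Esrrb had 0.43 and 0.50, Ppargc1a, a coactivator of respiratory genes, -0.06 and 0.47 near the floor at 80.5, 77.1 and 111.4, Esrra 0.28 and 0.47, and Polg2, of the mitochondrial DNA polymerase, -0.51 and -0.40. In the list of regulators, signals were below those of most members, and no direction was shared. The brightest, Tfam, had 294.9, 302.0 and 392.3, with log2 ratios of 0.03 and 0.41.

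**Figure D4:**
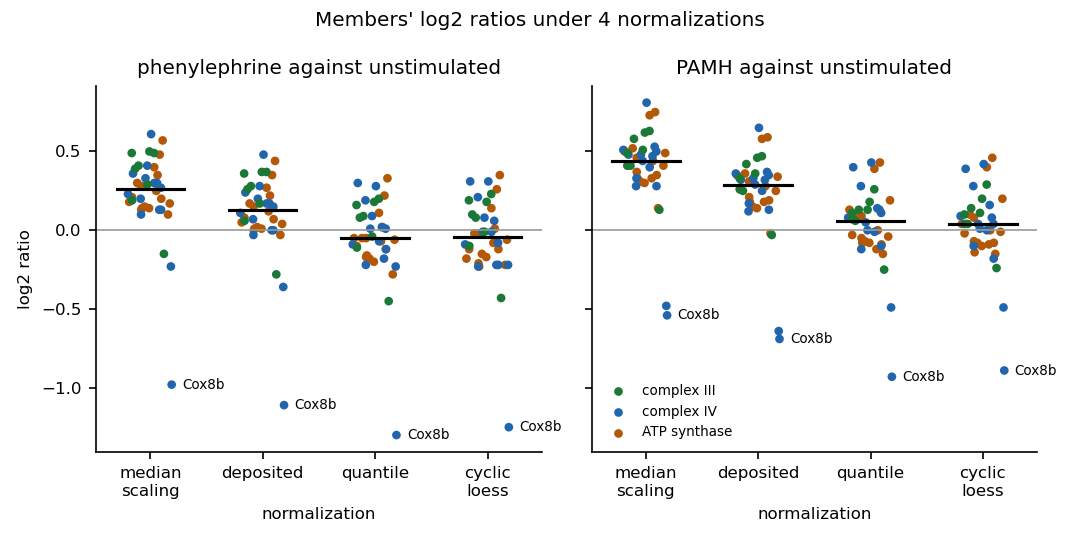
Log2 ratio to the unstimulated array (vertical axis) of the members under 4 normalizations, with phenylephrine (left) and PAMH (right); each point is a member, colours give the complex and the black bar is the median over members. The bar goes from 0.26 to -0.05 with phenylephrine and from 0.44 to 0.06 with PAMH between median scaling and quantile normalization, whereas Cox8b stays the lowest point in each column.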

How the data were processed

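The deposited table holds linear signal intensities of 15923 probe sets on 3 arrays, and 57 of the probe sets are controls. How the authors made these intensities is not given in the sources used here. Each array had a mean of 250.1 once 2% of the values at either end were trimmed. Of the other 15866 probe sets, 12783 carried 1 gene symbol in the platform annotation, and the 312 with several were left out, 5 of them for names of this group. All 40 gene identifiers of the members were in the RefSeq table of GRCr8, from which only names and promoter sequences were used.

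Each array was multiplied by 1 factor (0.938, 1.02 and 1.04) to equal medians over non-control probe sets. On the deposited values those medians differed from the unstimulated one by log2 -0.13 and -0.15, and all ratios are relative to that shift. A gene was represented by its brightest probe set by deposited mean, and a ratio needed both arrays at or above the floor. Genes were counted at 1.5-fold and 2-fold, a log2 of 0.58 for the first. The ratio code was tested on simulated arrays. Members, lists and the rule for named genes (tissue isoforms, the 5 highest and 5 lowest ratios in each comparison, members past 1.5-fold or below the floor, and up to 3 members per list with the largest ratios) were chosen with earlier results of these data known. Other members were added for their roles. The bright gene background, and leaving assembly factors (Ndufaf) out of the complex I list, were added after seeing the data; with them that list had 40 measured genes, and 1 and 5 at least 1.5-fold higher. Tools were Python 3.11.15, pandas 2.3.3, R 4.3.3 and limma 3.58.1. The number of arrays limits the precision.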

Additional observations from a re-analysis of the deposited data

How the results depend on the processing

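The 10 alternatives were the deposited intensities, scaling on percentile 75, quantile and cyclic loess normalization, floors at percentile 20, at percentile 60 and none, an offset of 50, the mean over probe sets, and current gene symbols. The members' median log2 ratio with phenylephrine (0.26) was 0.13 on the deposited intensities and changed sign to -0.05 with quantile normalization and -0.04 with cyclic loess. With PAMH (0.44) it was 0.29, 0.06 and 0.04 in the same order. Both of these normalizations also brought the median of the other bright genes to between -0.03 and -0.01. The count at least 1.5-fold higher with phenylephrine (1) was 0 on the deposited intensities, with percentile 75, quantile and cyclic loess, and 2 with a floor at percentile 20 or none, which let in Cox4i2. With PAMH (5) it was 2 on the deposited intensities, 3 with percentile 75, 0 after quantile and cyclic loess normalization, and 6 with a floor at percentile 20 or none. The count at least 1.5-fold lower with PAMH (0) was 2 on the deposited intensities, Cox8b and Cox6c-ps1, and 1 with percentile 75, quantile and cyclic loess. The count lower with phenylephrine was 1 under all 10, and no member passed 1.5-fold between the treated arrays under any. The log2 ratio of Cox8b ranged from -1.30 to -0.97 with phenylephrine and from -0.93 to -0.53 with PAMH, and that of Cox6a1 from 0.28 to 0.61 and from 0.42 to 0.81. Over single members, 127 of 1134 recomputed ratios moved by more than the SD between probe sets of a gene. Of these, 64 moved after quantile normalization and 62 after cyclic loess, each of which recomputed 38 members in 3 comparisons. The last moved with the mean over probe sets, where Atp5if1 on PAMH against phenylephrine became -0.14. Floors, current symbols and that mean return the same ratio for most members, so the share of 1134 understates the effect of these normalizations. No paired analysis was possible because each group has 1 array. Leaving out an array leaves a group empty, so it was not run.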
